A study of Homo sapiens with 24 samples.

Results

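The pentraxins described here were the neuronal pentraxins NPTX1 and NPTX2, the neuronal pentraxin receptor NPTXR and the long pentraxin PTX3. These 4 genes were looked up by Ensembl identifier among 60279 genes counted in each of 24 RNA-seq libraries, and all 4 were among the 19997 genes that passed a filter on low counts. NPTX1 brought the family forward because earlier results of these data placed it low in cells with the YAP-TFE3 fusion. Its 4 comparisons that involve YAP-TFE3 are therefore given as values without a test. Tests of NPTX1 against EV use the same EV libraries as its YAP-TFE3 value and may not be independent of that choice. The other 3 genes entered by family membership.

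Pentraxins are secreted or membrane-held proteins that share a C-terminal pentraxin domain and assemble into multimers. NPTX1 and NPTX2 are released proteins that form mixed complexes with NPTXR, which is anchored in the membrane and can be shed, and these complexes gather AMPA-type glutamate receptors at excitatory synapses. PTX3 is released by fibroblasts, endothelial cells, myeloid cells and other cells during inflammation, binds complement components and takes part in the hyaluronan matrix.

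The cells were SW872, a human liposarcoma cell line, stably transduced with an empty vector (EV), a fusion (TAZ-CAMTA1 or YAP-TFE3), a mutant (TAZ4SA or YAP5SA) or a full-length parent (TFE3 or CAMTA1), in 8 groups of 3 libraries. TAZ-CAMTA1 and YAP-TFE3 are the fusion proteins of epithelioid hemangioendothelioma, TAZ4SA and YAP5SA are serine-to-alanine mutants of the TEAD co-activators TAZ and YAP, and TFE3 and CAMTA1 are the other parents of the fusions. All groups but CAMTA1 and a second empty vector set (EVsub) were collected after reaching confluence, while those were collected at sub-confluence, so that CAMTA1 was compared with EVsub and the others with EV. Every group is a model in 1 cell line with retroviral expression and drug selection of pooled cells, and the 5 comparisons with EV at confluence, like the comparison of EVsub with EV, share the same EV libraries.

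The libraries held 19700277 to 35287476 counts. Transcripts of the construct genes were checked first, with CAMTA1 at 144 ± 7.14 CPM (counts per 1000000, SD, n = 3) in TAZ-CAMTA1 against 21.4 ± 2.05 in EV and at 124 ± 8.09 in CAMTA1 against 22.9 ± 1.23 in EVsub. TFE3 stood at 336 ± 19.3 CPM in TFE3 and 283 ± 49.6 in YAP-TFE3 against 119 ± 10.1 in EV, and YAP1 at 253 ± 4.99 in YAP5SA against 128 ± 12.5. WWTR1, which encodes TAZ, was lower in the libraries labelled TAZ4SA (134 ± 0.539 CPM) than in EV (204 ± 20.3). This count does not bear out the label, so that the group is called the libraries labelled TAZ4SA. In TAZ-CAMTA1, which also carries a part of TAZ, WWTR1 stood at 181 ± 2.15 CPM and was not higher than in EV either (log2 difference of -0.17, adjusted p = 0.236). WWTR1 was also lower than in EV in YAP-TFE3 (126 ± 3.18 CPM) and in YAP5SA (68.7 ± 1.66), which carry no part of TAZ. The paper shows a western blot of Flag-tagged TAZ4SA in SW872 cells. Whether reads from the TAZ constructs were counted under WWTR1 was not tested. Replicate 3 of YAP-TFE3 and replicate 3 of YAP5SA lay farther from their group mates (mean distance 21.1 and 20.7 in log2 CPM over the 500 most variable genes) than the other 22 libraries did (12.6 to 18.3). Of the 7 mesenchymal markers all were expressed, with a summed level of 1925 to 7621 CPM. The 7 adipocyte markers summed to 64.2 to 370 CPM, most of it LPL (30.6 to 268) and PPARG (27.2 to 100.3), while ADIPOQ had no count in any library. The 9 neuronal markers summed to 3.09 to 9.63 CPM, with ELAVL4 at 0 counts. The 4 endothelial markers summed to 13.2 to 131 CPM and the 4 leukocyte markers to 0.952 to 2.08.

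In GRCh38, NPTX1 (ENSG00000171246) lies at chr17:80466834-80477843 on the minus strand, NPTX2 (ENSG00000106236) at chr7:98617285-98629869 on the plus strand, NPTXR (ENSG00000221890) at chr22:38818452-38844028 on the minus strand and PTX3 (ENSG00000163661) at chr3:157436850-157443633 on the plus strand. All are protein-coding. PTX3 lies inside VEPH1 on the opposite strand and shares 71 exon bases with it. VEPH1 stood at group means of 0.238 to 1.41 CPM. NPTX1 overlaps an opposite-strand lncRNA (ENSG00000290024) without shared exon bases.

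Of the members, only NPTX2 and PTX3 had entries in the RefSeq promoter table (GRCh38.p14), and the 250 bases upstream of their start sites are shown. Capitals mark the letters CCAAT in both sequences, TGACG, a cAMP response element half-site, in NPTX2, and a match to the NF-kB consensus in PTX3. The NPTX2 sequence is chr7:98617035-98617284 and the PTX3 sequence is chr3:157436600-157436849, both on the plus strand.
NPTX2: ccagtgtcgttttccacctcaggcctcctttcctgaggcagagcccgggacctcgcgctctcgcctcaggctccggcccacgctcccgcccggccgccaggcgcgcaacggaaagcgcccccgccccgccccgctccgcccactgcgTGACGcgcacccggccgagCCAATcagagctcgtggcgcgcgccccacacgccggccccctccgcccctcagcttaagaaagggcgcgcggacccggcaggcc
PTX3: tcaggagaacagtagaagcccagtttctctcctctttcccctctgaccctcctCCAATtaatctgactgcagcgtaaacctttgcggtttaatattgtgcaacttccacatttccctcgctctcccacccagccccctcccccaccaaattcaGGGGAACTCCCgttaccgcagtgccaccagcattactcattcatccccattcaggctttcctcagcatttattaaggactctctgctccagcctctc
The NPTX2 window was 75.6% G and C with 34 CpG pairs, and the PTX3 window was 51.6% with 5, where the median over all promoters was 11. Both strands of 35116 promoter windows were searched. CCAAT was found in 32% of all windows, TGACG in 21.2% and the NF-kB consensus in 9.96%. In PTX3 the NF-kB match began at 2 overlapping positions, 97 and 96 bases before the start site. Neither window held GGAATG, a TEAD motif found in 11.9% of windows. Neither held CACGTG, the E-box of the MiT/TFE family, found in 6.34%, or TGANTCA, the AP-1 motif, found in 6.57%. The TATA box letters TATAAA, found in 10.7%, were also in neither. These matches are descriptions of letters.

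NPTX1 varied most across the groups. In EV it stood at 96.8, 106 and 84.4 CPM in replicates 1, 2 and 3. In YAP-TFE3 it stood at 3.74, 4.30 and 2.43 CPM, which rested on 84 to 137 counts a library. All 3 YAP-TFE3 libraries lay below every library of the other groups, and the fitted level was 27.5-fold lower than in EV (log2 difference of -4.78, -4.57 without YAP-TFE3 replicate 3). Because NPTX1 was selected on this level, the value is a description.

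In YAP5SA, NPTX1 was measured at 13.6, 13.7 and 6.91 CPM. It was measured at 27.4, 27.9 and 19.5 CPM in the libraries labelled TAZ4SA. In TAZ-CAMTA1 the values were 44.4, 41.3 and 28.6 CPM. Each of these groups lay wholly below EV. NPTX1 fell by 3.08 on the log2 scale in YAP5SA against EV (SE 0.25, adjusted p = 3.36e-10) which was -2.81 without YAP5SA replicate 3. It fell by 1.94 in the libraries labelled TAZ4SA (SE 0.23, adjusted p = 2.13e-07) and by 1.33 in TAZ-CAMTA1 (SE 0.22, adjusted p = 0.000423).

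In TFE3, NPTX1 stood at 124, 98.4 and 78.9 CPM and overlapped EV (log2 difference of 0.07, 95% interval -0.38 to 0.52). In the sub-confluent EVsub it reached 178, 170 and 224 CPM, above all EV libraries, and rose by 0.99 on the log2 scale (SE 0.22, adjusted p = 0.00106). In CAMTA1, also sub-confluent, it was at 257, 229 and 163 CPM and overlapped EVsub (log2 difference of 0.18, interval -0.26 to 0.63, adjusted p = 0.842). From lowest to highest mean the order was YAP-TFE3, YAP5SA, the libraries labelled TAZ4SA, TAZ-CAMTA1, EV, TFE3, EVsub and CAMTA1. Neighbours in this order overlapped only for EV with TFE3 and EVsub with CAMTA1, and the highest group mean was 61.9 times the lowest.

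**Figure D1:**
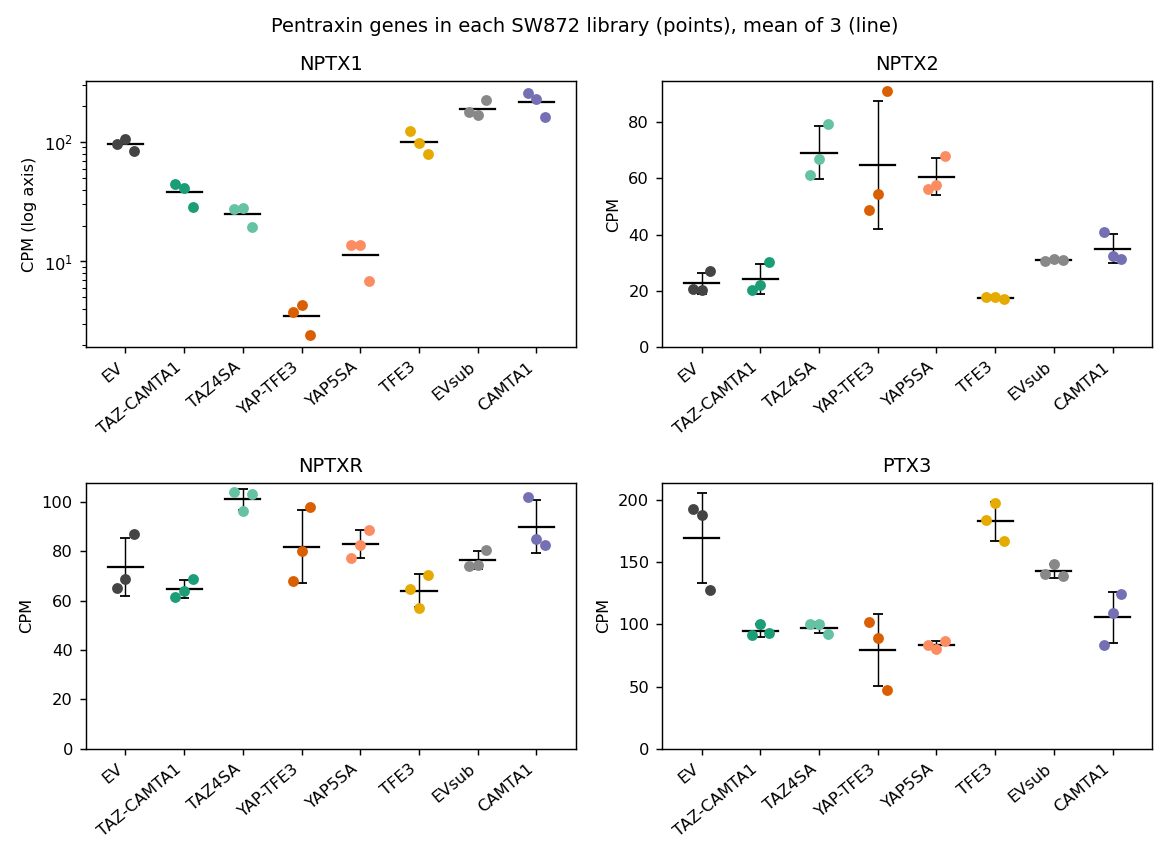
CPM of NPTX1 (log axis), NPTX2, NPTXR and PTX3 in each of the 24 libraries by group as labelled, with points for libraries, a line for the mean of 3 and, except for NPTX1, bars for 1 SD. NPTX1 is lowest in YAP-TFE3 (2.43 to 4.30 CPM), NPTX2 is high in YAP-TFE3, TAZ4SA and YAP5SA, and PTX3 is lower in those groups and in TAZ-CAMTA1 than in EV.

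NPTX2, an activity-regulated pentraxin of neurons, was measured at 20.6, 20.2 and 27.1 CPM in EV. It reached 48.8, 54.4 and 91.0 CPM in YAP-TFE3. In YAP5SA it stood at 56.3, 57.5 and 68.1 CPM. In the libraries labelled TAZ4SA it stood at 61.1, 67.0 and 79.4 CPM, so that these 3 groups lay wholly above EV. NPTX2 rose by 1.52 on the log2 scale in YAP-TFE3 (SE 0.18, adjusted p = 2.58e-07), and by 1.20 without YAP-TFE3 replicate 3. It rose by 1.43 in YAP5SA (SE 0.18, adjusted p = 8.32e-07) and by 1.62 in the libraries labelled TAZ4SA (SE 0.18, adjusted p = 1.18e-07).

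In TAZ-CAMTA1, NPTX2 stayed at 20.2, 22.0 and 30.1 CPM and overlapped EV (log2 difference of 0.10, interval -0.28 to 0.48, adjusted p = 0.832). In TFE3 it was at 17.8, 17.7 and 17.1 CPM (log2 difference of -0.36, interval -0.75 to 0.02). In EVsub the libraries, at 30.7, 31.2 and 31.1 CPM, all lay above EV, but the difference of 0.46 had an adjusted p of 0.0529 under edgeR. It passed the threshold with the replicate block (0.47, adjusted p = 0.0211), under DESeq2 (adjusted p = 0.0432), with the compared groups alone (0.45, adjusted p = 0.00446), at a filter of a mean of 1 count (0.48, adjusted p = 0.0400) and without EV replicate 3 (0.60, adjusted p = 0.0304). The difference stayed uncalled with DESeq2 size factors, total-count scaling and a filter at a mean of 20 counts. Leaving out any other library of the 2 groups also left it uncalled (edgeR adjusted p up to 0.1745). In CAMTA1 the values were 40.9, 32.4 and 31.4 CPM (log2 difference from EVsub of 0.18, interval -0.20 to 0.55). Highest over lowest group mean was 3.95.

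NPTXR changed least. Its libraries ranged from 57.1 CPM in TFE3 to 104 CPM in the libraries labelled TAZ4SA, every group overlapped its neighbour in the order of means, and the highest group mean was 1.58 times the lowest. EV libraries stood at 65.0, 68.9 and 87.3 CPM. The libraries labelled TAZ4SA stood at 104, 96.2 and 103 CPM, all above EV, and NPTXR rose by 0.46 on the log2 scale (SE 0.12, adjusted p = 0.00276). With libraries scaled to their total counts this difference was 0.26 and missed the threshold (adjusted p = 0.0717), and this scaling moved the median of all genes from -0.03 to -0.23. In YAP-TFE3, at 68.1, 80.0 and 97.9 CPM, NPTXR differed from EV by 0.16 (interval -0.09 to 0.40). In YAP5SA it differed by 0.17 (interval -0.08 to 0.42), which passed the threshold without EV replicate 3 (0.31, adjusted p = 0.0492).

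PTX3 moved opposite to NPTX2 in YAP5SA, in YAP-TFE3 and in TAZ4SA as labelled. EV libraries stood at 193, 188 and 128 CPM. YAP-TFE3 libraries stood at 102, 89.2 and 46.9 CPM. In YAP5SA the values were 83.8, 80.0 and 86.8 CPM, in the libraries labelled TAZ4SA 100.3, 100.2 and 92.1, and in TAZ-CAMTA1 91.5, 101 and 92.8. All 4 groups lay below EV. PTX3 fell by 1.10 on the log2 scale in YAP-TFE3 (SE 0.19, adjusted p = 2.93e-05), which was -0.83 without YAP-TFE3 replicate 3. It fell by 1.02 in YAP5SA (SE 0.19, adjusted p = 8.70e-05), by 0.80 in the libraries labelled TAZ4SA (SE 0.18, adjusted p = 0.000943) and by 0.84 in TAZ-CAMTA1 (SE 0.18, adjusted p = 0.00654).

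In TFE3, PTX3 was at 184, 198 and 167 CPM and overlapped EV (log2 difference of 0.11, interval -0.27 to 0.48). In EVsub it was at 141, 149 and 139 CPM (log2 difference from EV of -0.25, interval -0.63 to 0.13). In CAMTA1 the 3 libraries, at 83.7, 109 and 125 CPM, lay below EVsub, and the difference of -0.44 did not pass the threshold (interval -0.82 to -0.06, adjusted p = 0.302).

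**Figure D2:**
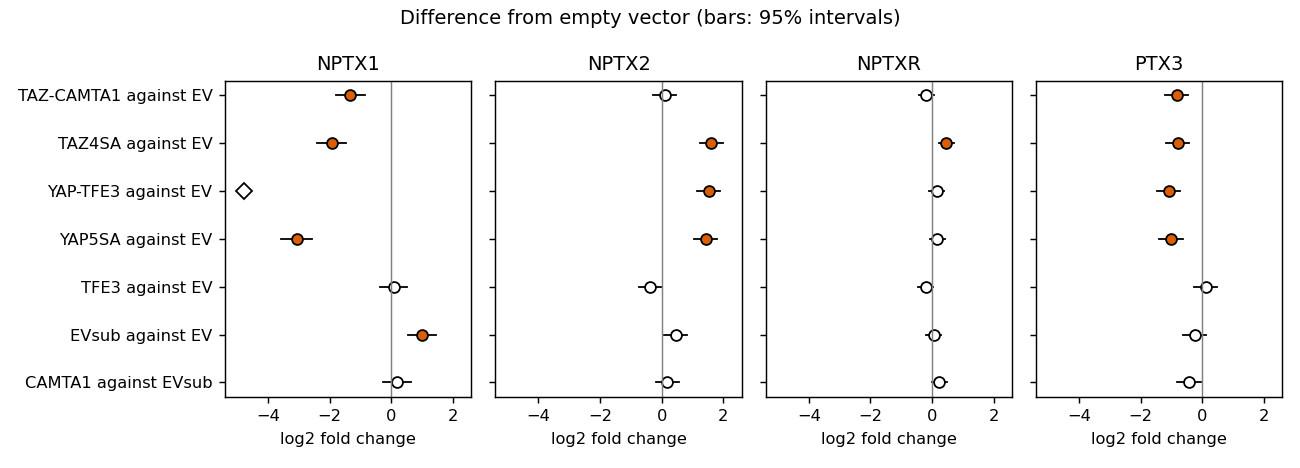
Log2 fold change of each pentraxin gene against its empty vector, with groups named as labelled, 95% intervals as bars and filled circles for adjusted p under 0.05, while the open diamond marks the NPTX1 value in YAP-TFE3, which has no test. NPTX1 and PTX3 lie left of 0 in TAZ-CAMTA1, TAZ4SA, YAP-TFE3 and YAP5SA, and NPTX2 lies right of 0 in TAZ4SA, YAP-TFE3 and YAP5SA.

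These counts of members were read against the share of all tested genes that were called. They include the NPTX1 calls against EV, which share the EV libraries with the value that brought NPTX1 forward. In TAZ-CAMTA1 against EV, 2 of 4 members were called, NPTX1 and PTX3, both lower, where 4.98% of all genes were called. In the libraries labelled TAZ4SA, 4 of 4 were called where 49.2% of all genes were. In YAP-TFE3, 2 of the 3 tested members were called where 48.2% of all genes were. In YAP5SA, 3 of 4 were called against 44.3%. In EVsub against EV, 1 of 4 was called against 36.8%. In CAMTA1 against EVsub, 0 of 4 were called by edgeR and 0 by DESeq2, and 1.83% of all genes were called. An unadjusted edgeR p under 0.05 was found there for 1 member (PTX3) and for 2474 of 19997 genes. In TFE3 against EV, 0 of 4 were called by edgeR and 0 by DESeq2, and 0.0350% of all genes were called. An unadjusted edgeR p under 0.05 was found there for 0 members and for 757 of 19997 genes. In the comparisons that called over 40% of all genes, a call of a member was a common event. Total-count scaling moved the share of calls that were higher. In YAP-TFE3 against EV this share went from 53.1% to 43.8%, and in YAP-TFE3 against YAP5SA from 53.6% to 61.9%. It went from 50.9% to 31.4% in the libraries labelled TAZ4SA against EV and from 51.2% to 31.4% in YAP5SA against EV. In CAMTA1 against EVsub it went from 68.9% to 56.8%, and in EVsub against EV from 53.7% to 42%. In TAZ-CAMTA1 against TAZ4SA it went from 50.1% to 67%, and in TAZ-CAMTA1 against YAP-TFE3 from 46.5% to 57.5%. In YAP-TFE3 against TFE3 it went from 53.1% to 42.5%. The move was smaller in TAZ-CAMTA1 against EV (71.2% to 65.6%) and in TAZ4SA against YAP5SA (49.2% to 48.3%).

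Each fusion was then compared with the mutant parent and with the other fusion. Against the libraries labelled TAZ4SA, TAZ-CAMTA1 had lower NPTX2 (log2 difference of -1.52, adjusted p = 2.46e-07) and lower NPTXR (-0.64, adjusted p = 8.52e-05), with no overlap of libraries. NPTX1 was higher in TAZ-CAMTA1 by 0.61 (adjusted p = 0.0261), which did not pass the threshold without TAZ-CAMTA1 replicate 1 (0.47, adjusted p = 0.127), without TAZ-CAMTA1 replicate 2 (0.55, adjusted p = 0.0796) or without TAZ4SA replicate 3 (0.46, adjusted p = 0.127). PTX3 differed by -0.04 (interval -0.42 to 0.34). Thus 3 of 4 members were called where 53.7% of all genes were.

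Between YAP-TFE3 and YAP5SA, NPTX1 stood 3.26-fold lower in the fusion, as a description. Of the other 3 members, 0 were called by edgeR and 0 by DESeq2, and 52.4% of all genes were called. An unadjusted edgeR p under 0.05 was found for 0 of these 3 and for 11472 of 19997 genes. The log2 differences were 0.09 for NPTX2 (interval -0.27 to 0.46), -0.02 for NPTXR (interval -0.26 to 0.23) and -0.08 for PTX3 (interval -0.46 to 0.31). Without YAP-TFE3 replicate 3 they were -0.23 for NPTX2 and 0.20 for PTX3, so these directions rested on that library.

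Between the fusions, NPTX1 was 10.9-fold higher in TAZ-CAMTA1 than in YAP-TFE3, again as a description. NPTX2 was lower in TAZ-CAMTA1 by 1.42 on the log2 scale (log2 difference of -1.42, adjusted p = 8.43e-07), and -1.10 without YAP-TFE3 replicate 3. NPTXR was lower by 0.34 (log2 difference of -0.34, adjusted p = 0.0242) with overlapping libraries. That call was lost without YAP-TFE3 replicate 3 (-0.19, adjusted p = 0.183), without TAZ-CAMTA1 replicate 1 (-0.31, adjusted p = 0.0706), without TAZ-CAMTA1 replicate 2 (-0.33, adjusted p = 0.0634), with the compared groups alone (-0.31, adjusted p = 0.0952) and with total-count scaling (-0.25, adjusted p = 0.0990). PTX3 differed by 0.26 (interval -0.12 to 0.64, adjusted p = 0.269), and by -0.01 without YAP-TFE3 replicate 3 and 0.48 (adjusted p = 0.0483) without YAP-TFE3 replicate 1. In all, 2 of the 3 tested members were called where 42.7% of all genes were.

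YAP-TFE3 was also set against its TFE3 parent, with 48.0% of all genes called. NPTX1 stood 28.9-fold lower in the fusion, as a description. NPTX2 rose by 1.89 on the log2 scale (adjusted p = 1.04e-08) and PTX3 fell by 1.21 (adjusted p = 9.01e-06). Without YAP-TFE3 replicate 3 these were 1.56 and -0.93. NPTXR was higher by 0.36 (adjusted p = 0.0164), a call lost without YAP-TFE3 replicate 3 (0.21, adjusted p = 0.138), without TFE3 replicate 2 (0.28, adjusted p = 0.0920), with the compared groups alone (0.35, adjusted p = 0.0776) and with total-count scaling (0.26, adjusted p = 0.0826). Between the mutant parents, with 7.17% of all genes called, NPTX1 was higher in the libraries labelled TAZ4SA than in YAP5SA by 1.14 (SE 0.24, adjusted p = 0.00353). The other 3 members differed by 0.19, 0.29 and 0.22 for NPTX2, NPTXR and PTX3, with adjusted p of 0.637, 0.180 and 0.584.

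Levels of different genes can be compared only per length of transcript. As CPM per kb of annotated exon, EV held 13.6 ± 1.53 (SD, n = 3) of NPTX1, 7.47 ± 1.27 of NPTX2, 12.6 ± 2.04 of NPTXR and 90.1 ± 19.3 of PTX3. The NPTX1 level became 17.6 per kb when the longest annotated transcript set the length. Of the summed per-length level of the 3 neuronal pentraxins, NPTX1 made up 40.6% ± 6.23 in EV, 22.3% ± 5.80 in TAZ-CAMTA1, 8.20% ± 1.95 in the libraries labelled TAZ4SA, 4.61% ± 1.79 in YAP5SA and 1.5% ± 0.667 in YAP-TFE3. NPTX2 made up 22.1% ± 2.56 in EV and 58.7% ± 4.33 in YAP-TFE3. The sum itself was 31.8 to 35.9 CPM per kb in EV. In YAP-TFE3 it was 28.3, 32.3 and 47.2 in replicates 1, 2 and 3, spread on both sides of EV by replicate 3, and in YAP5SA it was 33.8 to 38.7 and overlapped EV. The sum lay wholly above EV in the libraries labelled TAZ4SA, at 41.9 to 46.7, and in TAZ-CAMTA1 wholly below it, at 23.6 to 25.8. These shares use the NPTX1 level that brought the gene forward and carry no test.

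**Figure D3:**
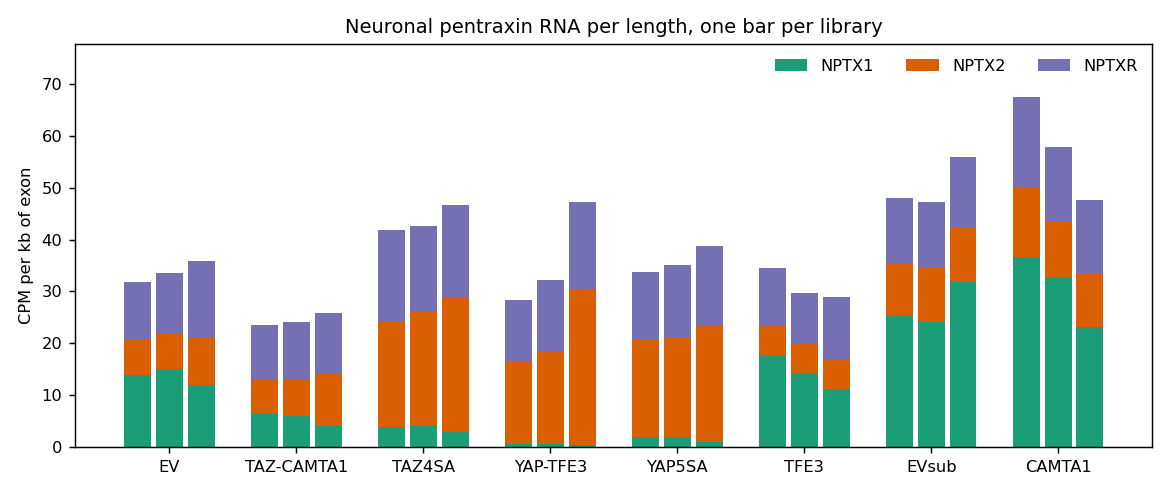
Summed CPM per kb of exon of NPTX1, NPTX2 and NPTXR in each library, with 1 stacked bar per library and 3 bars per group. NPTX1 makes up 40.6% of the bar on average in EV and 1.5% in YAP-TFE3.

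The genes whose pattern was most like each member were taken over the 8 group means, among 12151 other genes with an annotated symbol and a mean of at least 100 counts. For NPTX1 they were RABIF (Pearson r 0.981), TMEM104 (0.980) and the pseudogene DPY19L2P2 (0.979), none of them among the 3 most alike over the 24 libraries. Likeness in pattern did not mean likeness in size, since RABIF stood at 16.8 ± 0.844 CPM in EV and 12.4 ± 3.87 in YAP-TFE3. For NPTX2 they were ALDOA, a glycolytic enzyme (0.998), ADAMTS1, a secreted metalloprotease (0.997), and ANXA7, an annexin (0.995). ADAMTS1 was also the most alike over the 24 libraries, at 3.64 ± 0.853 CPM in EV and 11.1 ± 5.84 in YAP-TFE3. For NPTXR they were the RNA-binding protein gene YTHDF1 (0.965), the Mediator subunit gene MED27 (0.962) and MFSD14CP (0.955). For PTX3 they were MRPS21, of the mitochondrial ribosome (0.987), COPS9, of the COP9 signalosome (0.952), and RCC1L (0.951). Over the 24 libraries ALDOA ranked 425, MED27 64, MFSD14CP 1544, COPS9 939 and RCC1L 259, while ANXA7 ranked 17, YTHDF1 3 and MRPS21 18. Over the group means, r was above 0.9 for 237 genes with NPTX1, 344 with NPTX2, 55 with NPTXR and 22 with PTX3. The points are 8 group means of shared libraries, and these correlations are descriptions. ALDOA, ANXA7, DPY19L2P2, MFSD14CP and RCC1L overlap other annotated genes and are uncertain to that extent.

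Genes around the pentraxins were followed in 6 lists that hold 102 genes, of which 69 passed the filter on low counts. In YAP-TFE3 against EV, 28 were higher and 13 lower, or 59.4% called against 48.2% of all genes. In YAP5SA 23 were higher and 21 lower, or 63.8% against 44.3%, and in the libraries labelled TAZ4SA 26 and 22, or 69.6% against 49.2%. In EVsub 12 were higher and 27 lower, or 56.5% against 36.8%, and in TAZ-CAMTA1 6 and 5, or 15.9% against 4.98%. In CAMTA1 against EVsub 2 were higher and 0 lower by edgeR and 2 were called by DESeq2, with 2.90% called against 1.83% of all genes. There 13 of the 69 had an unadjusted edgeR p under 0.05, as did 2474 of all 19997 genes. In TFE3 against EV 0 were called by edgeR and 0 by DESeq2, where 0.0350% of all genes were called. There 2 of the 69 had an unadjusted edgeR p under 0.05, as did 757 of all 19997 genes. The lists were chosen with earlier results known, and nothing particular to them is read from these shares. APCS, C4BPB, TNFAIP6 and NRXN3 passed the filter largely through the group where each was high. Their calls in that group were thus partly set by the filter, and the counts above include them. Genes below were named for ranking among the 2 largest called changes of their list. Their changes in other groups are given only in part.

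Of 7 other genes with a pentraxin domain, 4 passed the filter. ADGRG6, an adhesion receptor, rose in YAP-TFE3 from 71.3 ± 3.19 to 196 ± 6.66 CPM (log2 difference of 1.46, adjusted p = 1.50e-07), and fell by 0.65 in YAP5SA and by 0.53 in the libraries labelled TAZ4SA. SVEP1, a large extracellular matrix protein, likewise rose by 1.29 in YAP-TFE3, and fell by 0.96 in YAP5SA and by 1.64 in the libraries labelled TAZ4SA. In YAP-TFE3, 3 of the 4 were higher, where 48.2% of all genes were called.

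Among 15 tested of 23 AMPA receptor subunits and auxiliary proteins, 3 were higher and 4 lower in YAP-TFE3 (48.2% of all genes called), with a median log2 difference of -0.09 against -0.01 over all genes. In the libraries labelled TAZ4SA 5 were higher and 6 lower (49.2% of all genes), and in YAP5SA 5 and 7 (44.3%). OLFM2, an olfactomedin, rose in YAP-TFE3 from 7.34 ± 0.899 to 50.2 ± 7.14 CPM (log2 difference of 2.77). OLFM2 also rose by 1.08 in TAZ-CAMTA1 and by 0.84 in YAP5SA, and fell by 1.10 in EVsub. CACNG4, an auxiliary subunit of AMPA receptors, fell by 1.37 in YAP-TFE3. It rose by 1.53 in YAP5SA, by 1.10 in the libraries labelled TAZ4SA and by 1.29 in EVsub. The cornichon CNIH3 fell by 1.59 in the libraries labelled TAZ4SA, by 2.34 in YAP5SA and by 0.79 in YAP-TFE3. CNIH2 fell by 1.55 in the libraries labelled TAZ4SA, by 1.35 in YAP5SA and by 1.09 in YAP-TFE3. GRIA2, GRIA3 and GRIA4, which encode receptor subunits, did not pass the filter on low counts. The subunit gene GRIA1 passed it, at 5.20 ± 1.56 CPM in EV, and is named here outside the ranking. GRIA1 fell by 1.38 in the libraries labelled TAZ4SA (adjusted p = 0.0017) and by 0.88 in YAP5SA (adjusted p = 0.0337). In YAP-TFE3 its difference of -0.47 was not called. GRIA1 overlaps another annotated gene.

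Of 16 tested of 25 other synapse organisers, 5 were higher and 5 lower in YAP-TFE3, 6 and 7 in the libraries labelled TAZ4SA, and 6 and 5 in YAP5SA, where 48.2%, 49.2% and 44.3% of all genes were called. The glypican GPC4 stood at 1.63 ± 0.350 CPM in EV and rose to 20.4 ± 2.51 in YAP-TFE3 (log2 difference of 3.63) and 18.4 ± 1.30 in YAP5SA (3.47). GPC4 also rose by 2.07 in TAZ-CAMTA1 and by 1.29 in the libraries labelled TAZ4SA. THBS1, a thrombospondin, rose by 1.72 in YAP-TFE3, by 1.94 in the libraries labelled TAZ4SA and by 2.69 in YAP5SA. It also rose by 0.72 in TAZ-CAMTA1 and 1.17 in EVsub, both against EV, and by 0.85 in CAMTA1 against EVsub. SPARCL1, a secreted matricellular protein, fell by 3.61 in the libraries labelled TAZ4SA, by 3.89 in YAP5SA and by 2.21 in EVsub.

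All 6 genes of shedding and the endoplasmic reticulum were tested, and 3 were higher and 0 lower in YAP-TFE3, where 48.2% of all genes were called. ADAM17, the protease that sheds NPTXR, rose from 55.9 ± 1.60 to 98.2 ± 9.78 CPM (log2 difference of 0.81, adjusted p = 1.32e-07), and RHBDF1, a rhomboid partner of ADAM17, rose by 1.05. In the libraries labelled TAZ4SA RHBDF1 rose by 0.54 and RCN2, a calcium-binding protein of the endoplasmic reticulum, fell by 0.32. In YAP5SA RHBDF1 rose by 0.49 and FRMD8 fell by 0.60. The counts here were small and moved with the settings, given in the closing part.

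Of 12 tested of 23 ligands and matrix partners of PTX3, 4 were higher and 3 lower in YAP-TFE3, 5 and 4 in the libraries labelled TAZ4SA, and 5 and 3 in YAP5SA, against 48.2%, 49.2% and 44.3% of all genes called. The proteoglycan gene VCAN fell by 2.27 in YAP-TFE3, by 3.38 in YAP5SA and by 3.43 in the libraries labelled TAZ4SA. LY96, a co-receptor for bacterial lipopolysaccharide, rose by 1.93 in YAP-TFE3 and by 1.26 in the libraries labelled TAZ4SA. SELP, the P-selectin gene, fell by 1.30 in the libraries labelled TAZ4SA and rose by 0.97 in YAP5SA.

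Of 16 tested of 18 inflammatory signals and NF-kB response genes, 10 were higher and 1 lower in YAP-TFE3, where 48.2% of all genes were called, with a median log2 difference of 0.70 against -0.01 over all genes. In the libraries labelled TAZ4SA 8 were higher and 2 lower (median 0.35, 49.2% of all genes called), and in YAP5SA 5 and 3 (median 0.11, 44.3% of all genes called). ICAM1, an adhesion molecule, rose in YAP-TFE3 from 119 ± 36.5 to 741 ± 102 CPM (log2 difference of 2.64), and RELB, an NF-kB subunit, rose by 1.29 there and by 1.43 in the libraries labelled TAZ4SA. The receptor gene IL1R1 fell by 1.54 in the libraries labelled TAZ4SA and by 1.31 in YAP5SA, and the cytokine gene LIF rose by 1.28 in YAP5SA. PTX3 itself was lower in all 3 groups. CACNG4, CNIH2, CNIH3, SVEP1, THBS1, RHBDF1, ADAM17, VCAN, ICAM1, IL1R1 and LIF overlap other annotated genes.

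**Figure D4:**
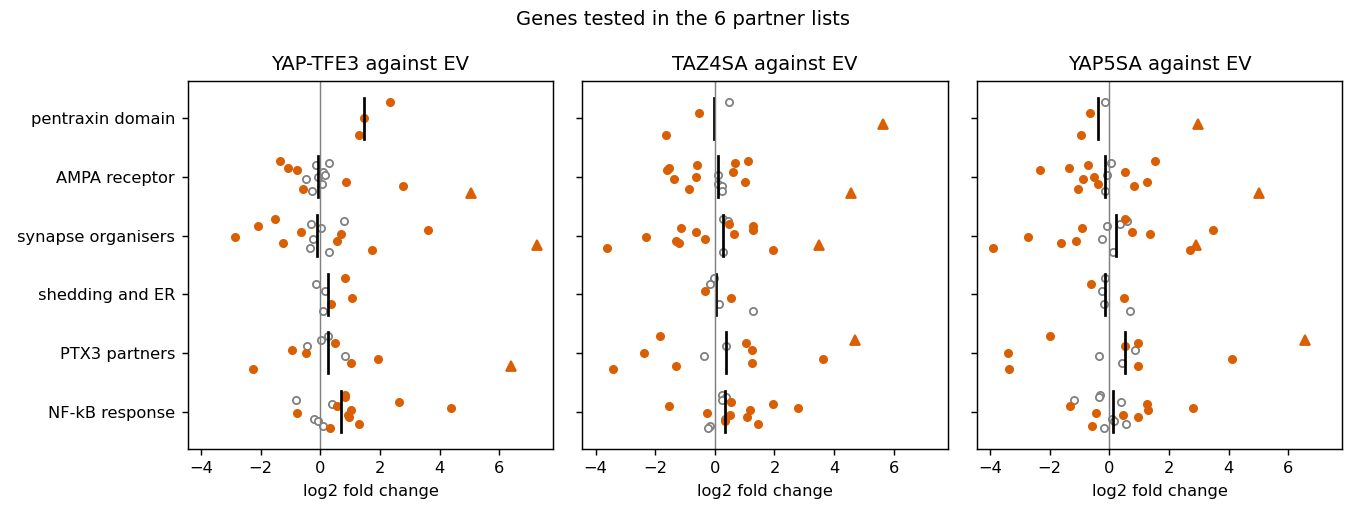
Log2 fold change against EV of the tested genes in the 6 lists, 1 point per gene, filled where the adjusted p is under 0.05, with a line at each list's median. Triangles mark genes with at most 3 counts in EV, drawn against a floor of 3 counts over the group, and genes at or under that floor in both groups are left out. The median of the NF-kB response list lies at 0.70 in YAP-TFE3 and 0.11 in YAP5SA.

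Markers of other cell types moved with the groups. The summed level of the 4 epithelial markers, nearly all of it KRT8, was 42.3 to 53.3 CPM in EV, 93.5 to 123 in YAP-TFE3, 918 to 1076 in the libraries labelled TAZ4SA and 1882 to 2449 in YAP5SA. The 7 mesenchymal markers summed to 4832 to 5730 CPM in EV, 4169 to 5649 in YAP-TFE3, 1925 to 2923 in the libraries labelled TAZ4SA and 2014 to 3627 in YAP5SA. That sum was carried largely by FN1 (785 to 6263 CPM over the libraries, median 2706) and VIM (464 to 1154, median 837). It does not describe the 7 genes one by one. The 7 adipocyte markers summed to 149 to 223 CPM in EV, 304 to 370 in YAP-TFE3, 64.2 to 74.5 in the libraries labelled TAZ4SA and 118 to 132 in YAP5SA, wholly above EV in YAP-TFE3 and wholly below it in the other 2 groups. The 4 endothelial markers summed to 79.8 to 119 CPM in EV, 35.6 to 52.8 in YAP-TFE3, 31.6 to 52.0 in the libraries labelled TAZ4SA and 13.2 to 18.2 in YAP5SA, all below EV. Sums also moved in EVsub, with epithelial markers at 102 to 150 CPM, above EV. There the mesenchymal markers, at 2759 to 2955 CPM, and the endothelial markers, at 32.1 to 47.2, lay below EV. The adipocyte sum in EVsub, 205 to 237 CPM, overlapped EV. In TAZ-CAMTA1 the epithelial markers, at 172 to 241 CPM, and the mesenchymal markers, at 5892 to 7595, lay wholly above EV. The endothelial sum there, 77.4 to 123 CPM, and the adipocyte sum, 173 to 235, overlapped EV. In CAMTA1 the adipocyte sum, 108 to 113 CPM, and the endothelial sum, 25.4 to 29.0, lay below EVsub. Its mesenchymal sum, 3035 to 3715 CPM, lay above EVsub, and its epithelial sum, 121 to 196, overlapped it. The part of these markers in the pentraxin values was not tested. In bulk RNA, fewer cells of a type and less RNA per cell cannot be told apart.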

How the data were processed

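Poly(A) RNA from 24 SW872 libraries (8 groups of 3) was sequenced from stranded TruSeq libraries. The authors deposited raw counts per Ensembl gene for each library, 1 file each, aligned to hg38 per the labels. The unit used was these deposited counts, which are whole numbers and not normalized. The study describes separate transductions, and p-values measure the spread between these libraries.

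The members and the gene lists were chosen with earlier results of these data known. All tests came from edgeR 4.0.16 (R 4.3.3): quasi-likelihood F test, TMM scaling, 1 mean per group over all 24 libraries, a minimum mean of 5 counts per gene, Benjamini-Hochberg adjustment over 19997 genes, called at an adjusted p under 0.05. CPM are counts over TMM-scaled totals of the tested genes. Exon lengths and positions came from GENCODE. The script was tested on simulated data. Alternatives were other scalings, filters, DESeq2 1.42.0, the compared groups alone, a replicate block and leaving out each library. The alternatives run on the list counts, and a filter at a mean of 1 count, were chosen after seeing the data.

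Named genes were the 4 members, the 3 genes most correlated with each over the 8 group means (mean of at least 100 counts), up to 2 called genes with the largest change per list in YAP-TFE3, TAZ4SA and YAP5SA against EV (mean of at least 100 counts), and the construct genes.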

Additional observations from a re-analysis of the deposited data

How the results depend on the processing

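TAZ4SA here means the libraries labelled so. Of 21 member values called, 17 stayed called in the same direction under every alternative with a usable test; the 4 NPTX1 values described without a test moved by less than 1 SD under each. The fit without a filter estimated an infinite prior df, which sets aside each gene's own spread (residual variance of NPTX1 0.754 against 3.36), so its p-values are void and are not counted; its log2 differences moved by at most 0.0342. Its 3 departures were PTX3 in CAMTA1 against EVsub (-0.44), NPTX2 in EVsub against EV (0.49) and NPTXR in YAP-TFE3 against YAP5SA (0.0007). Total-count scaling gave NPTXR 0.26 in TAZ4SA against EV, -0.25 in TAZ-CAMTA1 against YAP-TFE3 and 0.26 in YAP-TFE3 against TFE3, no longer called, and reversed NPTXR in YAP5SA against EV (-0.011), EVsub against EV (-0.0087) and YAP-TFE3 against YAP5SA (0.080) and PTX3 in TAZ-CAMTA1 against TAZ4SA (0.16) and YAP-TFE3 against YAP5SA (0.029), none of them called. With the compared groups alone NPTXR was -0.31 in TAZ-CAMTA1 against YAP-TFE3 and 0.35 in YAP-TFE3 against TFE3, both not called. NPTX2 in EVsub against EV was called at 0.46 under DESeq2, 0.45 with the compared groups alone, 0.48 at a filter of a mean of 1 count and 0.47 with the replicate block. The cause of these moves was not tested.

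Leaving out 1 library changed a call or a direction for these log2 differences, whose ranges were -0.095 to 0.24 for NPTX2 in TAZ-CAMTA1 against EV, 0.088 to 0.31 for NPTXR in YAP5SA against EV, -0.11 to 0.22 for NPTX1 in TFE3 against EV, -0.059 to 0.21 for PTX3 in TFE3 against EV, 0.38 to 0.60 for NPTX2 in EVsub against EV, -0.029 to 0.19 for NPTXR in EVsub against EV, 0.46 to 0.75 for NPTX1 in TAZ-CAMTA1 against TAZ4SA, -0.23 to 0.26 for NPTX2 in YAP-TFE3 against YAP5SA, -0.16 to 0.10 for NPTXR in YAP-TFE3 against YAP5SA, -0.30 to 0.20 for PTX3 in YAP-TFE3 against YAP5SA, -0.46 to -0.19 for NPTXR in TAZ-CAMTA1 against YAP-TFE3, -0.011 to 0.48 for PTX3 in TAZ-CAMTA1 against YAP-TFE3 and 0.21 to 0.47 for NPTXR in YAP-TFE3 against TFE3. The number of shedding and endoplasmic reticulum genes called in YAP-TFE3 against EV was 3, with a range of 2 to 4 over libraries left out (4 without YAP-TFE3 replicate 3) and 2 with the compared groups alone. In TAZ4SA against EV it was 2, with a range of 1 to 2 over libraries left out and 1 at a filter of a mean of 1 count, and in YAP5SA against EV it was 2 and became 5 with total-count scaling. Genes called went from 366 to 662 with the compared groups alone in CAMTA1 against EVsub (176 to 446 without single libraries, with 446 without CAMTA1 replicate 3), from 7 to 15 under DESeq2 in TFE3 against EV (1 to 12 without single libraries), from 996 to 544 and 545 without EV replicate 2 and TAZ-CAMTA1 replicate 3 in TAZ-CAMTA1 against EV, and from 1434 to 901 or 923 in TAZ4SA against YAP5SA without TAZ4SA replicate 1, YAP5SA replicate 1 or TAZ4SA replicate 2. Same-numbered libraries were not taken as pairs, since every pair correlated at over 0.1 in 0 of 12 comparisons (mean correlations -0.0962 to 0.189), and the replicate block was an alternative only. Some comparisons hint at a shared number, from the data and not the design: each library was best matched by its own number for 6 of 6 libraries in YAP-TFE3 against EV and 5 of 6 in EVsub against EV and in TAZ-CAMTA1 against TAZ4SA, while it was 0 to 4 of 6 in the other 9, and the block lowered the residual variance of NPTX1 from 3.36 to 1.92. The block changed the call of 1 of 48 member values, NPTX2 in EVsub against EV. The depth, at least 84 counts per library for each member, limits NPTX1 in YAP-TFE3 most.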

Other observations

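Some genes of the lists were nearly absent from EV and detected in 1 or more other groups. They were chosen after their values were seen, and they passed the filter on low counts largely through the group where each was high. APCS, the serum amyloid P pentraxin, had no count in the 3 EV libraries together and 147 counts in the libraries labelled TAZ4SA (1.99 ± 0.119 CPM, SD, n = 3), at least 5.65 higher on the log2 scale against a floor of 3 counts over the group, and 21 counts in YAP5SA, at least 2.98 higher. C4BPB, a chain of the complement regulator C4b-binding protein, had no count in EV and 251 counts in YAP5SA, at least 6.56 higher, and 76 counts in the libraries labelled TAZ4SA, at least 4.70 higher. TNFAIP6, which modifies the hyaluronan matrix with PTX3, had 1 count in EV and 322 counts in YAP-TFE3 (3.36 ± 1.08 CPM), while the libraries labelled TAZ4SA and YAP5SA had none. NRXN3, a neurexin, had 1 count in EV and 587 counts in YAP-TFE3 (6.0 CPM), 20 counts in YAP5SA and 33 in the libraries labelled TAZ4SA. These values are descriptions, and most of the NRXN3 counts came from YAP-TFE3. NRXN3 overlaps 12 other annotated genes and TNFAIP6 overlaps 3, and both are uncertain to that extent.

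The library numbered 3 was the lowest of its group for NPTX1 in 7 of 8 groups and for PTX3 in 5 of 8, and the highest for NPTXR in 6 of 8 and for NPTX2 in 5 of 8.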
